A study of Mus musculus with 12 samples.

Results

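The replication-dependent histone genes are the clustered genes that supply the core histones H2A, H2B, H3 and H4 and the linker histone H1 for newly replicated DNA. A list of 46 of these genes was looked up by symbol in the count tables of a study of cardiomyocytes that, by its title, lost Chaf1a around birth. Of the 46 genes, 45 were found among the 25239 gene symbols of each table, and H4c16 is not a symbol of these tables. They comprised 5 H1, 10 H2A, 9 H2B, 11 H3 and 10 H4 genes, 39 on chromosome 13 and 6 on chromosome 3. No measured value entered the choice of the genes, although earlier results of these data were known when the list was made.

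Total RNA of mouse heart cardiomyocytes was sequenced in 12 libraries, 3 in each of 4 groups. The cko animals carried Myh6-Cre together with floxed Chaf1a alleles (Chaf1a f/f), and the controls carried the floxed alleles without Cre, so that Cre and the loss of Chaf1a cannot be told apart. Myh6 is the gene of the main adult cardiac myosin, and its promoter drives Cre in cardiomyocytes. The libraries of the first table are Ctrl and Chaf1a cko, named the first set below. The second held Ctrl 3M and Chaf1a cko 3M, named the 3M set. The labels call the RNA source cultured cardiomyocytes, name 1 batch and the same kit with ribosomal RNA depletion for every library, write WT as the genotype of the controls, give no age or strain, and leave 3M unexplained. They do not state that libraries of a group stem from separate hearts or cultures, so the p-values below reflect no more than the spread among these particular libraries, possibly a technical one.

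Cells make these histones mainly in S phase, when cyclin E and CDK2 activate NPAT at the clusters. Their mRNAs end in a short stem-loop in place of a poly(A) tail. SLBP binds the stem-loop for processing, export and translation, and the mRNAs are degraded when DNA synthesis stops. Chaf1a encodes the large subunit of CAF-1, the chaperone that deposits new H3 and H4 behind the replication fork. Cardiomyocytes largely leave the cell cycle after birth, many of them with more than the diploid DNA content.

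The stem-loop was searched in the GENCODE transcripts (release vM21, GRCm38, the assembly of mm10) with GGNNCT as the letters of the first 6-base stem arm, TNTN as those of the 4-base loop that follows and AGNNCC as those of the second arm. It was found in 34 of the 45 genes and in 0.363% of all 55341 GENCODE genes. The other 11 models did not hold these letters, and nothing is drawn from that. In 30 of the 34 genes the RefSeq gene ended 4 to 6 bases after the stem-loop. The windows below hold 5 bases on either side and lie in the 3′ untranslated part of single-exon models, with the 16 bases of the motif in capitals. They show the variants carried by genes described below.
H1f3, chr13:23555782-23555807, plus strand: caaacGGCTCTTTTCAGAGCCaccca
H2ac18, chr3:96246027-96246052, plus strand: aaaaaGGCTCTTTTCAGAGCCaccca
H2bc12, chr13:22036295-22036320, plus strand: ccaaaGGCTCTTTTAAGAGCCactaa
H3c1, chr13:23761885-23761910, minus strand: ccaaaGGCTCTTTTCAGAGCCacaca
H3c15, chr3:96238480-96238505, minus strand: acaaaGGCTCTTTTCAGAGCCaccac
H4c8, chr13:23531453-23531478, plus strand: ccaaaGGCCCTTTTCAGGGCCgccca
H4c14, chr3:96262934-96262959, minus strand: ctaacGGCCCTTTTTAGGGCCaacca
H4c2, chr13:23757361-23757386, plus strand: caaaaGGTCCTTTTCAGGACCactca
The form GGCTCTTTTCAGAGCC stood in 19 genes of the classes H1, H2A, H2B and H3 and in no H4 gene. All 9 H4 genes with a match carried GGCC or GGTC at the start of the stem.

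RefSeq promoters (GRCm38.p6, 250 bases before to 50 after the start) were at hand for 41 of the 45 genes. Motifs were searched on both strands, and none of their letters contain another motif. The octamer ATTTGCAT, the letters bound by POU2F1, was in 9 of the 41 genes (21.95%) against 1.97% of 27025 genes with a promoter. All 9 were H2A (4 of 10) or H2B (5 of 8) genes. CCAAT was in 35 of 41 (85.4%, against 41.1%), and the 6 without it were H4 genes. TATAAA was in 24 of 41 (58.5%, against 15.7%). The H1 box AAACACA was in 4 of 5 H1 genes, 1 of 10 H2A genes and 1 of 8 H2B genes, and in 8.22% of all genes. CGGAC, the core of the sequence bound by the H4 transcription factor HINFP, was in all 9 H4 promoters and in 25.8% of all genes. It was not limited to H4, with matches in 5 of 10 H2A, 2 of 8 H2B, 1 of 9 H3 and 0 of 5 H1 genes (17 of 41 in all, 41.5%). These matches are descriptions of the letters only.
The next 4 windows end at a start site and belong to genes that rose in the first set and to H2ac15, which did not pass but shares its window with H2bc15. Capitals mark the motifs of the preceding paragraph on either strand, and each sequence reads in the direction of the gene, for the pair in that of H2bc15.
H1f5, chr13:21780626-21780825, minus strand, with an H1 box, CCAAT on both strands and a TATA box: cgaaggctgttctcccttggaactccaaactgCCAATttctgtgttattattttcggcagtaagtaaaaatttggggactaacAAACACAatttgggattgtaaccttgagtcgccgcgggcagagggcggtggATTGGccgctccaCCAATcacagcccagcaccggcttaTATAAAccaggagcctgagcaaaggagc
H2bc12, chr13:22035621-22035820, plus strand, with the octamer, CCAAT and TATAAA on the other strand: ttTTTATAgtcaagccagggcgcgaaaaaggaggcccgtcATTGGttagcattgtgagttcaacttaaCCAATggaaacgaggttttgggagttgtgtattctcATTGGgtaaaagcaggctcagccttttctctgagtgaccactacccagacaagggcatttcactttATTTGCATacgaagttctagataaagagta
H2ac15 and H2bc15, chr13:21753913-21754075, plus strand, the bases between their start sites, with CCAAT: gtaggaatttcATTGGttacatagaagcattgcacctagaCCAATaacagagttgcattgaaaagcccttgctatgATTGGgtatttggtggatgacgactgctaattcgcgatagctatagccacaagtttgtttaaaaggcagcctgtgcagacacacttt
H4c12, chr13:21750554-21750753, minus strand, with the HINFP core on both strands, a TATA box and no CCAAT: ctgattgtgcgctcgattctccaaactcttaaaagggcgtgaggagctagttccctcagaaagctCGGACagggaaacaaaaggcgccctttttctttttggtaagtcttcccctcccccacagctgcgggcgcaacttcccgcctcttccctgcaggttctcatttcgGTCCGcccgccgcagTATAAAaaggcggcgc

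Some properties of the libraries bear on every value below. Each first-set library held 15068468 to 20896673 counts, and each 3M library 10569325 to 16445963. Levels are given as CPM, counts scaled to a common library size by TMM within each table. Where levels of both tables are given, as for Rmrp, Rpph1 and H2bc4, their difference was not tested. Reads lay on almost every gene of the first table: 94.7% to 97.5% of 1542 chemoreceptor genes had counts in each library there, against 1.17% to 1.62% in the 3M set. Their 95th percentile, 5.32 CPM, is used as the background level of the first set, and 42 of the 45 histone genes had a mean above it. Y-linked genes summed to at most 61.1 CPM in Ctrl and at least 114.6 CPM in Chaf1a cko of the first set, so that genotype and the sex mixture of the libraries cannot be told apart. Chaf1a was at 22.7, 32.3 and 18.8 CPM in Ctrl and 28.99, 24.5 and 21.95 CPM in Chaf1a cko (log2 fold change 0.03, SE 0.18). It was thus not lower in the libraries labelled cko, and directions below are those of the labels. Counts per gene do not set deleted exons apart from the rest of the gene.

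In the first set every histone class was higher in Chaf1a cko than in Ctrl. The 45 genes together summed to 1151.8, 1142.5 and 1133.1 CPM in the Ctrl libraries, by replicate number, and to 1551.5, 1632.8 and 1609.6 CPM in those of Chaf1a cko. Means were 1142.5 ± 9.34 and 1598.0 ± 41.9 CPM (SD, n = 3 each), a 1.40-fold difference with no overlap between the groups. As a share of all counts the genes rose from 0.115% to 0.159%. Sums are used because copies of a class are nearly identical, so that reads could have been split among them when counted. They carry no test.

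H2B, whose protein pairs with H2A in the nucleosome, showed the largest ratio of the 5 sums. It was at 165, 172 and 154 CPM in Ctrl and 253, 250.4 and 239.8 CPM in Chaf1a cko, 1.52-fold higher. H3 and H4, which form the central tetramer and are the cargo of CAF-1, differed by 1.43 and 1.41 times. H3 was at 135.4, 123.1 and 132.8 CPM against 176, 193 and 189 CPM. H4 was at 125.7, 115.6 and 114.4 CPM against 159.7, 176 and 165 CPM. H2A, the class with the largest sum, was at 376, 391 and 393 CPM against 527, 529 and 554 CPM (1.39-fold). The linker histone H1 was at 349.9, 341 and 339 CPM against 435, 483 and 462 CPM (1.34-fold), and without its most abundant gene H1f2 the log2 ratio of the H1 sum was 0.57 instead of 0.42. In each class the lowest Chaf1a cko library lay above the highest Ctrl library.

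**Figure D1:**
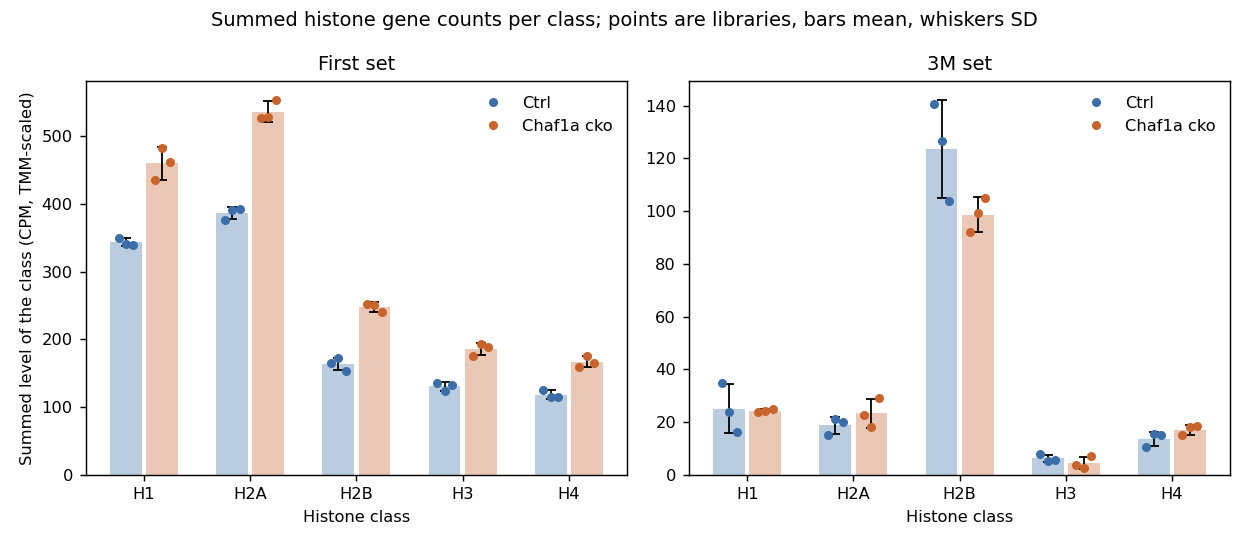
Summed level of each histone class (y axis, CPM scaled by TMM) in Ctrl and Chaf1a cko libraries of the first set (left) and the 3M set (right, on its own axis), with points for libraries, bars for means and whiskers for SD (n = 3). In the first set the orange points lie above the blue points in all 5 classes, from 1.34-fold for H1 to 1.52-fold for H2B, while the points overlap in every class of the 3M set.

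Gene by gene, 16 of the 45 histone genes rose, 0 fell and 29 did not pass, by edgeR's quasi-likelihood test and Benjamini-Hochberg adjusted p-values over the 22965 genes tested. Over all tested genes 1.18% were called, 0.740% higher and 0.435% lower. The median log2 fold change of the histone genes was 0.51, beside -0.01 for all tested genes, and 42 of the 45 values were above 0 (49.1% of all tested genes). The libraries of the groups lay fully apart in 33 histone genes, all higher in Chaf1a cko, a pattern seen in 8.33% of all tested genes, and 0 lay apart in the other direction (7.85% of all). The same 33 is the number with an unadjusted p under 0.05 in the higher direction (5.63% of all tested genes), and 0 had one in the lower direction. The 3 negative values belonged to H2bc9 (-0.02), H4c14 (-0.20) and H4c6 (-0.33), none of which passed. In bulk RNA, fewer cells of a type and less RNA per cell cannot be told apart.

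The number of calls depended on having all 3 libraries per group. Leaving out Ctrl replicates 1, 2 and 3 in turn gave 9, 6 and 8 calls, and leaving out Chaf1a cko replicates 1, 2 and 3 in turn gave 6, 5 and 8. H1f5, H1f3, H2ac18 and H2bc15 passed in all 6 of these fits, and H2ac13, H2ac10, H2bc12, H4c4 and H4c8 passed in none of them. The ratio of the sum over all 45 genes moved little, with log2 ratios from 0.47 to 0.50 in the 6 fits.

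**Figure D2:**
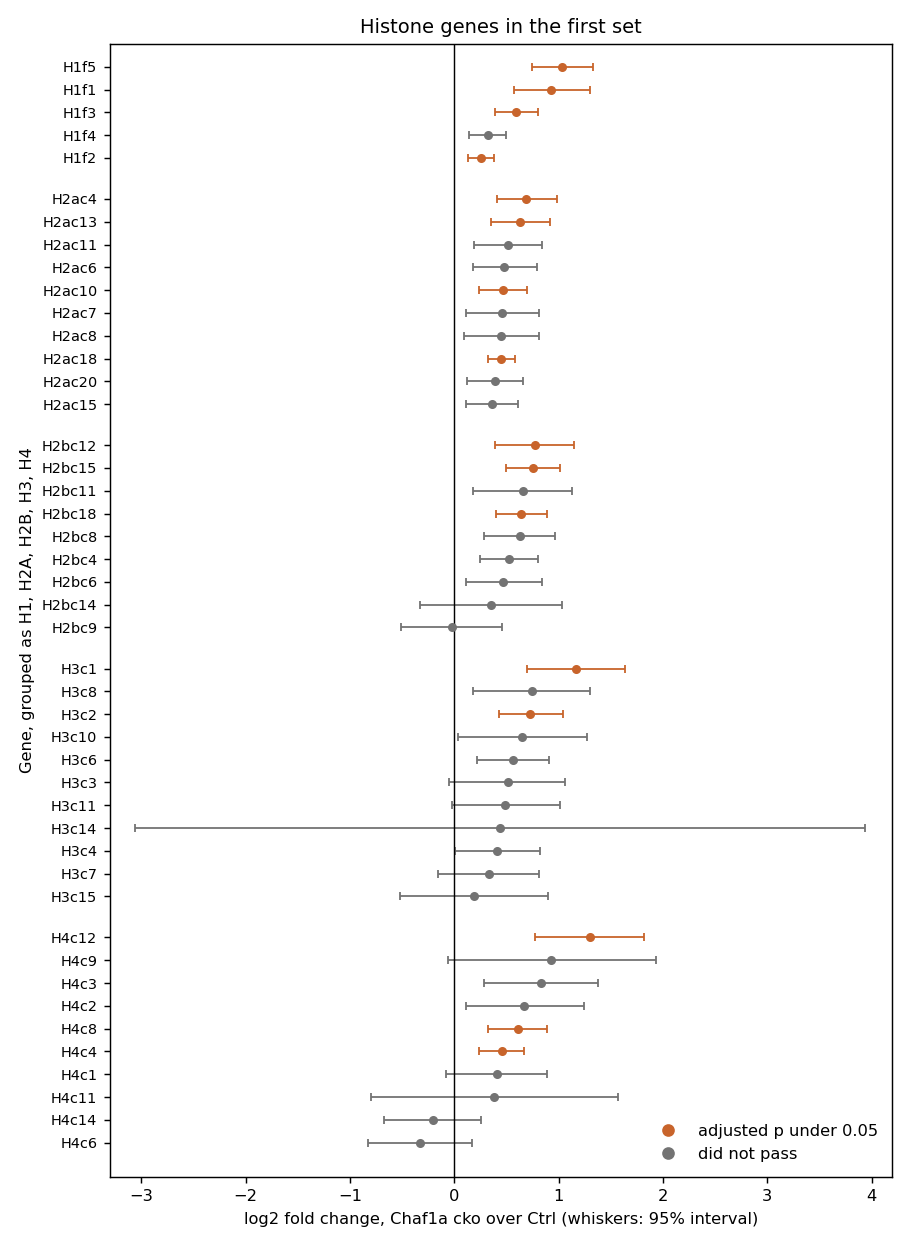
Log2 fold change of Chaf1a cko over Ctrl (x axis) for the 45 histone genes of the first set (y axis, grouped by class and ordered by value), with 95% intervals from edgeR as whiskers and the 16 genes with an adjusted p under 0.05 in orange. All but 3 points lie to the right of 0, and the interval of H3c14 is the widest.

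H1 proteins bind the linker DNA between nucleosomes, and 4 of the 5 H1 genes rose. H1f5 was at 21.9, 19.6 and 27.4 CPM in Ctrl and 45.5, 43.1 and 52.3 CPM in Chaf1a cko, and its log2 fold change of 1.03 (SE 0.14, adjusted p 0.000452 in edgeR) was the largest of the class. H1f1 was at 12.8, 18.2 and 17.01 CPM against 27, 37.4 and 27.8 CPM (0.93, SE 0.17, adjusted p 0.00880). H1f3 was at 45.4, 40.8 and 43.6 CPM against 63.1, 65.04 and 67.6 CPM (0.59, SE 0.10, adjusted p 0.00259). The groups of each of these genes lay apart, with every Chaf1a cko library above every Ctrl library.
H1f2, the most abundant H1 gene per length (237 CPM per kb in Ctrl), was at 174, 172 and 171 CPM against 193, 216 and 208 CPM. Its rise was the smallest called among the histone genes (0.26, SE 0.06, adjusted p 0.0371). H1f4 was at 95.9, 91.0 and 79.9 CPM against 106, 122 and 106 CPM and did not pass (0.32, adjusted p 0.0947), although its groups did not overlap either. The call of H1f1 was lost without Chaf1a cko replicate 2 (adjusted p 0.0999). That of H1f2 was lost without any single library other than Chaf1a cko replicate 1, with adjusted p-values from edgeR of 0.0844, 0.154 and 0.143 for Ctrl replicates 1, 2 and 3 and of 0.24 and 0.172 for Chaf1a cko replicates 2 and 3. H1 genes are the least alike of the classes: at most 26.5% of the 50-base windows of a coding sequence occurred in another named gene, and 0% for H1f1 and H1f5. Their single-gene values are therefore least touched by reads shared between copies.

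All 10 H2A genes had CPM ranges above those of Ctrl, and 4 of them rose. H2ac18, on chromosome 3, held the most counts per length of the 45 genes (294 CPM per kb in Ctrl). This value may include reads of its copy H2ac19, described below. H2ac18 was at 156, 165 and 169 CPM in Ctrl and 221, 209 and 240.2 CPM in Chaf1a cko (log2 fold change 0.45, SE 0.06, adjusted p 0.000556 in edgeR). H2ac4 was at 25.6, 22.6 and 29.8 CPM against 46.1, 40.7 and 39.3 CPM (0.69, SE 0.13, adjusted p 0.0119). H2ac13 was at 22.95, 23.1 and 20.6 CPM against 36.7, 34.8 and 31.9 CPM (0.63, adjusted p 0.0242). H2ac10 was at 37.9, 38.1 and 37.5 CPM against 47.0, 56.9 and 53.3 CPM (0.47, adjusted p 0.0410). The other 6 H2A genes had log2 fold changes from 0.36 (H2ac15) to 0.51 (H2ac11), and none of them passed. H2A calls numbered 1 or 2 when a library was left out. H2ac4 did not pass without Ctrl replicate 2 (adjusted p 0.0914), Chaf1a cko replicate 1 (0.107) or Chaf1a cko replicate 2 (0.0571).
The coding sequence of H2ac18 is shared in full (100% of its 50-base windows) with H2ac19, a copy outside the list of 46. In the first table H2ac19 was at 0.241 to 0.531 CPM while H2ac18 held 156 CPM or more. In the 3M table the pair had like values in every library, for instance 14.6 and 14.4 CPM in Ctrl 3M replicate 1 and 28.1 and 29.1 CPM in Chaf1a cko 3M replicate 3. Reads of these copies were thus divided differently in the tables, and no label states how they were assigned.

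Of the 9 H2B genes 3 rose. H2bc15 was at 29.3, 24.5 and 29.9 CPM in Ctrl and 46.1, 45.6 and 49.2 CPM in Chaf1a cko (log2 fold change 0.75, SE 0.12, adjusted p 0.00242 in edgeR). H2bc18 was at 35.5, 46.4 and 34.7 CPM against 63.3, 59.9 and 59.1 CPM (0.64, SE 0.12, adjusted p 0.00731), and its coding sequence shared 0% of its 50-base windows with other named genes. H2bc12, whose promoter with the octamer is shown above, was at 9.90, 11.9 and 12.4 CPM against 20.9, 19.3 and 18.3 CPM (0.77, SE 0.18, adjusted p 0.0421). In these genes too every Chaf1a cko library was above every Ctrl library. H2bc4, H2bc6, H2bc8 and H2bc11 had values from 0.47 to 0.66 without passing and without overlap between the groups. H2bc14 (0.35) and H2bc9 (-0.02) overlapped. The call of H2bc18 was lost without Ctrl replicate 3 (adjusted p 0.0625) or Chaf1a cko replicate 1 (0.0614). The class had 1 or 2 calls when a library was left out, against 5 in DESeq2's Wald test and 5 with a filter of 10 CPM.

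Of the 11 H3 genes 2 rose. H3c1, which encodes H3.1, was at 6.69, 5.74 and 5.39 CPM in Ctrl and 13.3, 15.1 and 11.6 CPM in Chaf1a cko (log2 fold change 1.17, SE 0.22, adjusted p 0.0108 in edgeR). Its Ctrl level was close to the background level of 5.32 CPM. H3c2, which encodes H3.2, was at 18.2, 17.1 and 18.8 CPM against 33.0, 28.3 and 28.7 CPM (0.73, SE 0.14, adjusted p 0.0142). H3c6 was at 17, 17.1 and 18.01 CPM against 27, 20.8 and 29.3 CPM, with groups apart but no call (0.56, adjusted p 0.142). All 11 H3 values were above 0, and the groups overlapped in 5 of the genes. H3.1 and H3.2 differ by a single residue and are both deposited by CAF-1. The 4 genes of H3.1 (H3c1, H3c8, H3c10 and H3c11) summed to 24.02, 23.3 and 22.4 CPM against 36.3, 47.03 and 35.1 CPM. The 7 genes of H3.2 summed to 111, 99.9 and 110.4 CPM against 140.1, 146 and 153 CPM. Neither pair of groups overlapped, and the log2 ratios were 0.77 and 0.45, a difference that was not tested. Most of the H3.1 genes were near or below the background level in Ctrl. Their Ctrl means were 5.94 (H3c1), 4.45 (H3c8), 3.68 (H3c10) and 9.15 CPM (H3c11). H3c1 did not pass without Ctrl replicate 2 (adjusted p 0.06) or 3 (0.0638), nor without Chaf1a cko replicate 1 (0.0552) or 2 (0.0885). H3c2 did not pass without Ctrl replicate 2 (0.0857), nor without Chaf1a cko replicate 1 (0.118), 2 (0.0537) or 3 (0.0574).

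The chromosome 3 copies H3c14 and H3c15 show why sums are given. Their coding sequences share 100% of their 50-base windows. H3c14 had 278, 2 and 378 counts in Ctrl replicates 1 to 3 and 223, 267 and 443 in Chaf1a cko, while H3c15 had 280, 639 and 461 counts and 309, 728 and 540. The library with 2 counts of H3c14, Ctrl replicate 2, had the highest Ctrl count of H3c15. Summed, the pair was at 37.3, 33.2 and 39.7 CPM in Ctrl and 31.99, 52.9 and 48.5 CPM in Chaf1a cko, and the groups overlapped (log2 ratio 0.28). Neither gene passed, H3c14 with 0.44 (SE 1.28) and H3c15 with 0.19 (SE 0.31), and the sign of H3c15 turned without Chaf1a cko replicate 2 (-0.12).

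**Figure D3:**
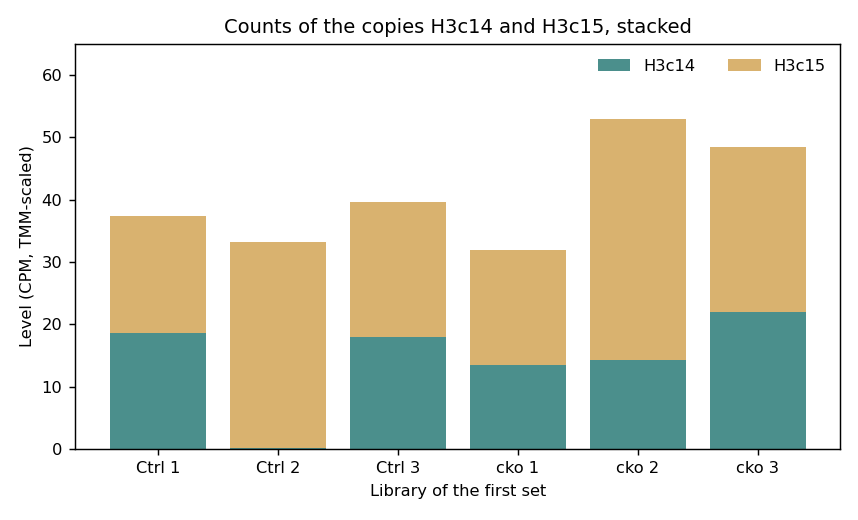
Levels of H3c14 and H3c15 (y axis, CPM scaled by TMM, stacked) in the 6 libraries of the first set (x axis). In Ctrl replicate 2 nearly the whole bar is H3c15, at 33.1 CPM against 0.103 CPM for H3c14, while the height of the pair stays near that of the other Ctrl libraries.

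Of the 10 H4 genes 3 rose. H4c12 was at 6.42, 4.19 and 9.31 CPM in Ctrl and 16.3, 16.1 and 16.7 CPM in Chaf1a cko, and its log2 fold change of 1.30 (SE 0.25, adjusted p 0.0119 in edgeR) was the largest of all 45 genes. Ctrl replicate 2 lay below the background level. H4c8 was at 22.8, 21.99 and 21.7 CPM against 31.2, 37.4 and 32.7 CPM (0.61, SE 0.14, adjusted p 0.0326). H4c4, the most abundant H4 gene per length (103 CPM per kb in Ctrl), was at 43.5, 42.2 and 38.2 CPM against 54.7, 56.8 and 58.6 CPM (0.46, SE 0.10, adjusted p 0.0325). The groups of the called H4 genes were apart. H4c6 and H4c14, the members with negative values, were at 12.3, 9.05 and 7.94 against 7.999, 7.39 and 7.84 CPM and at 13.4, 10.5 and 9.22 against 8.78, 9.14 and 10.7 CPM, overlapping in both cases. H4c14 is also the H4 gene least like the others, with 6.15% of its coding windows found in another named gene, against 42.7% or more for the rest of the class. The class had 1 call without Ctrl replicate 3 and 0 without any other single library, where edgeR gave H4c12 adjusted p-values of 0.0556 and 0.0632 (Ctrl replicates 1 and 2) and of 0.064, 0.0682 and 0.0799 (Chaf1a cko replicates 1, 2 and 3). Over all classes the Wald test of DESeq2 called 22 histone genes, each higher in Chaf1a cko, and 2.10% of all tested genes in either direction.

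**Figure D4:**
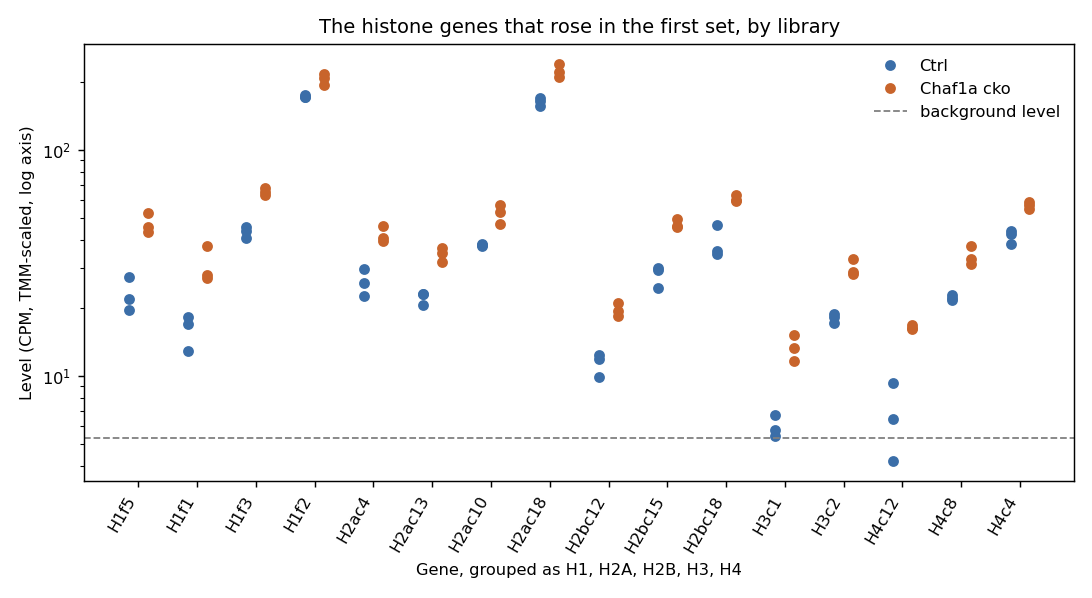
Level (y axis, CPM scaled by TMM, log axis) of the 16 histone genes that rose in the first set (x axis, grouped by class), with 1 point per library and a dashed line at the background level of 5.32 CPM. For each gene the 3 orange points lie above the 3 blue points, and only H3c1 and H4c12 have Ctrl points near the line.

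The rise was spread over the genome clusters. On chromosome 13 (mm10), the 9 genes from 21716412 to 21783397 summed to 136.6, 126.5 and 144.8 CPM in Ctrl and 215, 214 and 228 CPM in Chaf1a cko (log2 ratio 0.69). The 4 genes from 22035821 to 22043658 summed to 39.5, 43.4 and 35.6 against 60.6, 61 and 62.8 CPM (0.64). The 26 genes from 23531044 to 23764412, the main cluster, summed to 703, 684 and 667 against 914, 978 and 919 CPM (0.45). The 6 genes on chromosome 3 from 96220413 to 96270192 summed to 272, 289 and 286 against 362, 379 and 400.2 CPM (0.43). No cluster overlapped between the groups, and differences among the clusters were not tested. Within the clusters, 4 pairs of an H2A and an H2B gene start within 400 bases of each other in opposite directions. H2ac15 and H2bc15, 164 bases apart, had log2 fold changes of 0.36 and 0.75. H2ac11 and H2bc11, 249 bases apart, had 0.51 and 0.66, and H2ac8 and H2bc8, 180 bases apart, had 0.45 and 0.63. H2ac6 and H2bc4, 240 bases apart, had 0.48 and 0.52. The H2B gene had the higher value in each pair, a difference that was not tested.

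The genes that make, process and remove histone mRNA did not pass in edgeR, although the sums of both lists were higher in Chaf1a cko. Of 26 genes of histone transcription and 3′ end processing, edgeR called 0, as did DESeq2, with a median log2 fold change of 0.03 and 1 gene with an unadjusted p under 0.05. Npat, the coactivator of the clusters, was at 47.8, 40.0 and 35.2 CPM in Ctrl and 40.5, 42.8 and 43.0 CPM in Chaf1a cko (0.04). Slbp, the stem-loop binding protein, was at 40.5, 37.1 and 33.5 against 33.9, 37.0 and 36.8 CPM (-0.04, SE 0.12). Both overlapped between the groups, and the 95% interval of Slbp ran from -0.30 to 0.21. The most abundant members were Ybx1 (0.13) and Supt6 (0.03). The list summed to 2614.8 to 2802.3 CPM in Ctrl and 2824.1 to 2870.4 CPM in Chaf1a cko, without overlap. Of its 26 log2 fold changes 16 were above 0, where 49.1% of all tested genes were. Of 14 genes of histone mRNA decay 0 passed (median 0.05, 1 with an unadjusted p under 0.05, 1 called by DESeq2), with Smg1 at 0.09 and Tut7 at -0.02. The decay genes summed to 1224.2 to 1276.8 CPM in Ctrl and 1294.0 to 1316.3 CPM in Chaf1a cko, also without overlap. Of their 14 values 10 were above 0.

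Genes of the S phase lists were on the higher side without a call in edgeR, whereas the proliferation marker Mki67, which is on none of the lists, rose. Mki67 was at 609, 611 and 607 CPM in Ctrl and 773, 789 and 788 CPM in Chaf1a cko, with the groups fully apart (log2 fold change 0.36, SE 0.04, adjusted p 1.4e-05 in edgeR). Of 13 genes of cyclin E, CDK2 and their regulators edgeR called 0 (median 0.12, 2 with an unadjusted p under 0.05, both higher, and 1 called by DESeq2). Ccna2, the cyclin of S and G2 phase, was at 60.5, 62.8 and 61.0 CPM in Ctrl and 70.7, 75.9 and 84.4 CPM in Chaf1a cko (0.33, adjusted p 0.115 in edgeR), and Cdkn1c, a CDK inhibitor, had 0.24. Of 20 S phase markers edgeR called 0, DESeq2 called 4, and 9 had an unadjusted p under 0.05, all higher. The median of the markers was 0.25, and 19 of the 20 values were above 0, where 49.1% of all tested genes were. Their sum was 496 to 528 CPM in Ctrl and 607 to 635 CPM in Chaf1a cko. Pcna, the sliding clamp to which CAF-1 binds, was at 53.9, 45.0 and 51.9 CPM against 74.7, 61.4 and 63.1 CPM (0.40, adjusted p 0.0952). Rrm1, the large subunit of ribonucleotide reductase, had 0.20. Cell-cycle stage of the cells was not measured, and the part of these shifts in the histone values was not tested.

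Of 22 histone chaperone genes 2 rose and 0 fell, with a median of 0.11. Nap1l1, a carrier of H2A and H2B, was at 52.1, 55.6 and 70.3 CPM in Ctrl and 84.98, 111.9 and 110.0 CPM in Chaf1a cko (log2 fold change 0.78, SE 0.13, adjusted p 0.00731 in edgeR). Dnajc9, a chaperone of H3 and H4, was at 13.2, 12.3 and 13 against 21.3, 20.8 and 23.5 CPM (0.77, SE 0.17, adjusted p 0.0258). The groups were apart in both. Nap1l1 did not pass without Ctrl replicate 2 (adjusted p 0.0729). Dnajc9 did not pass without any single library, with adjusted p-values in edgeR of 0.0607, 0.121 and 0.0904 without Ctrl replicates 1, 2 and 3 and of 0.0958, 0.0802 and 0.159 without Chaf1a cko replicates 1, 2 and 3.

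Replacement histones, which are made from polyadenylated mRNA outside S phase as well, gave 0 calls among 12 genes in edgeR and in DESeq2 (median 0.18, 2 with an unadjusted p under 0.05). H3f3b, a gene of H3.3, was at 308, 311 and 286 CPM in Ctrl and 326, 345 and 325 CPM in Chaf1a cko (0.14, adjusted p 0.317). The groups of H3f3b did not overlap. H3f3a, the other H3.3 gene, had 0.17, with overlap. The replacement histones were on the higher side as a list. They summed to 914 to 944 CPM in Ctrl and 1001.9 to 1072.1 CPM in Chaf1a cko, without overlap. Of their 12 log2 fold changes 10 were above 0, where 49.1% of all tested genes were. Clustered histone genes outside the list of 46 were on the higher side too: of 22 tested, 4 rose and 0 fell, with a median of 0.54. These were Hist1h2bq (0.78, adjusted p 0.00833), H3f4 (1.81, 0.0230), H2ac12 (0.71, 0.0235) and Hist1h2an (0.78, 0.0279). H3f4 was below the background level on average, at 4.73 CPM. Leaving out replicate 2 of either group gave 0 calls, leaving out Chaf1a cko replicate 1 gave 1, and leaving out any of the other libraries gave 2.

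Markers of cell types moved in the same libraries. Of 10 cardiomyocyte markers 4 fell (Myh6, Actc1, Ttn and Ryr2) and 0 rose, with a summed level of 97537.1 to 100931.5 CPM in Ctrl and 92077.6 to 92760.8 CPM in Chaf1a cko. The list was mixed: 6 of the 10 log2 fold changes were above 0 (median 0.03). In edgeR 3 markers were higher and 4 lower by unadjusted p under 0.05. Of 10 fibroblast markers 5 fell (Dcn, Col1a1, Col1a2, Col3a1 and Lum), from 3760.3 to 3856.7 CPM in Ctrl and 3154.7 to 3193.3 CPM in Chaf1a cko. Of 10 smooth muscle and pericyte markers 2 rose (Acta2 and Cnn1) and 1 fell (Myh11), with sums of 1287.2 to 1363.5 against 1602.3 to 1617.0 CPM. The sums of erythroid markers were higher in Chaf1a cko (1720.6 to 2302.7 against 2353.7 to 2379.0 CPM) and those of macrophage markers lower (108.7 to 114.9 against 94.3 to 107.2 CPM), with 0 calls of 12 and of 10 genes in edgeR. By unadjusted p under 0.05, 3 genes of these 2 lists were lower and 2 higher. Of the 12 erythroid log2 fold changes 6 were above 0, with a median of 0.03. Tal1, a transcription factor of blood cells outside these lists, rose from 10.4, 7.92 and 9.83 CPM to 28.03, 26.3 and 25.1 CPM (2.83-fold, with an edgeR adjusted p of 7.7e-05). Sums of endothelial, lymphocyte, Schwann and epicardial markers overlapped, and no marker was at 0 in all libraries. Of the 10 endothelial markers 3 (Cldn5, Vwf and Tie1) were lower by unadjusted p under 0.05 in edgeR, and 0 were higher. The lymphocyte, Schwann and epicardial lists had 0 in either direction. Every one of the cardiomyocyte markers was present. The part of these shifts in the histone values was not tested.

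In the 3M set few of the histone genes had enough counts to be tested. Of the 45 genes 12 passed the low-count filter, 5 were at 0 in all 6 libraries (H1f5, H2ac15, H2bc14, H3c1 and H3c3), and 19 had fewer than 10 counts over all libraries together. Only 1 of the 5 H1 genes and 1 of the 10 H2A genes entered the test. Rmrp and Rpph1, small RNAs without a poly(A) tail, were at 0.937 to 7.83 and 0.770 to 3.47 CPM in the 3M libraries, and at 373 to 456 and 4216.7 to 4904.9 CPM in those of the first table. The labels name 1 ribosomal RNA depletion kit for both tables, and the part of RNA without a poly(A) tail in the 3M values was not tested. GENCODE models with 100 or more bases after the stem-loop were found for 7 of the 12 genes that entered the test and for 12 of the 33 that did not.

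Of the 12 tested histone genes edgeR called 0 and the Wald test of DESeq2 called 0, and 0 had an unadjusted p under 0.05 in edgeR. Over all 13925 tested genes edgeR called 0.0144% and DESeq2 0.517%, and 6.93% had an unadjusted p under 0.05. The median log2 fold change was 0.04 for the 12 genes and -0.02 for all tested genes, with 6 values above and 6 below 0 (48.0% of all tested genes were above). All 45 genes summed to 209, 193 and 161 CPM in Ctrl 3M, against 157, 162 and 185 CPM in Chaf1a cko 3M, with overlapping groups (log2 ratio -0.16). The H2A sum (15.1, 21.3 and 19.98 against 22.6, 18.2 and 29.03 CPM), the H3 sum (7.79, 5.39 and 5.75 against 3.75, 2.76 and 7.19 CPM) and the sums of the other classes overlapped as well.

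H2bc4 made up 59.9% of the summed histone level in Ctrl 3M and 90.8% of the H2B class. The Ctrl 3M libraries had 130.7, 113.9 and 92.3 CPM of it, those of Chaf1a cko 3M 79.1, 88.9 and 95.6 CPM (log2 fold change -0.35, SE 0.20, 95% interval -0.81 to 0.10). In the first set the same gene was at 32.3, 28.6 and 26.4 CPM against 41.9, 46.6 and 36.8 CPM (0.52, adjusted p 0.0671 in edgeR). Its RefSeq gene spans chr13:23684199-23692480, and its GENCODE transcript has 2 exons and does not hold the stem-loop letters, unlike the single-exon models of most of the list. H1f2 was at 34.99, 23.7 and 16.3 CPM against 23.2, 23.6 and 23.6 CPM in the 3M set (-0.09). Its sign turned without Ctrl 3M replicate 1 (0.23). H2ac18 was at 14.6, 19.6 and 19.7 CPM against 20.2, 17.9 and 28.1 CPM (0.30, SE 0.28). Each of these genes overlapped between the groups.
H4c8 was at 4.69, 7.70 and 7.67 CPM against 8.90, 10.4 and 11.8 CPM (0.63, SE 0.37), and H4c2 at 0.469, 0.296 and 0.639 against 0.750, 0.898 and 1.27 CPM (1.05, SE 1.28). These were the 2 tested histone genes whose groups did not overlap, both higher in Chaf1a cko 3M, where 7.21% of all tested genes have that pattern. H4c9 was at 2.72, 4.62 and 4.88 against 2.72, 3.27 and 3.69 CPM (-0.33), and H2bc8 at 6.29, 8.41 and 9.91 against 8.998, 8.15 and 7.38 CPM (-0.01). Among H3 genes, H3c15 was at 2.81, 4.56 and 1.84 against 0.750, 0.578 and 2.67 CPM (-1.19, SE 0.94), H3c14 at 2.91, 0.178 and 1.68 against 1.41, 1.41 and 2.23 CPM (0.09, SE 1.14) and H3c4 at 1.41, 0 and 0.959 against 0.937, 0.770 and 1.85 CPM (0.60, SE 1.51). H2bc6 was at 1.22, 2.49 and 1.52 against 2.06, 0.898 and 1.72 CPM (-0.17, SE 0.95). H4c12 was at 0.657, 1.18 and 0 against 1.12, 1.60 and 0 CPM (0.54, SE 1.82). The SEs of the 7 tested genes with a mean under 5 CPM ran from 0.57 (H4c9) to 1.82 (H4c12). A difference as large as the first-set median of 0.51 was thus not detectable for them at these counts and this spread.

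**Figure D5:**
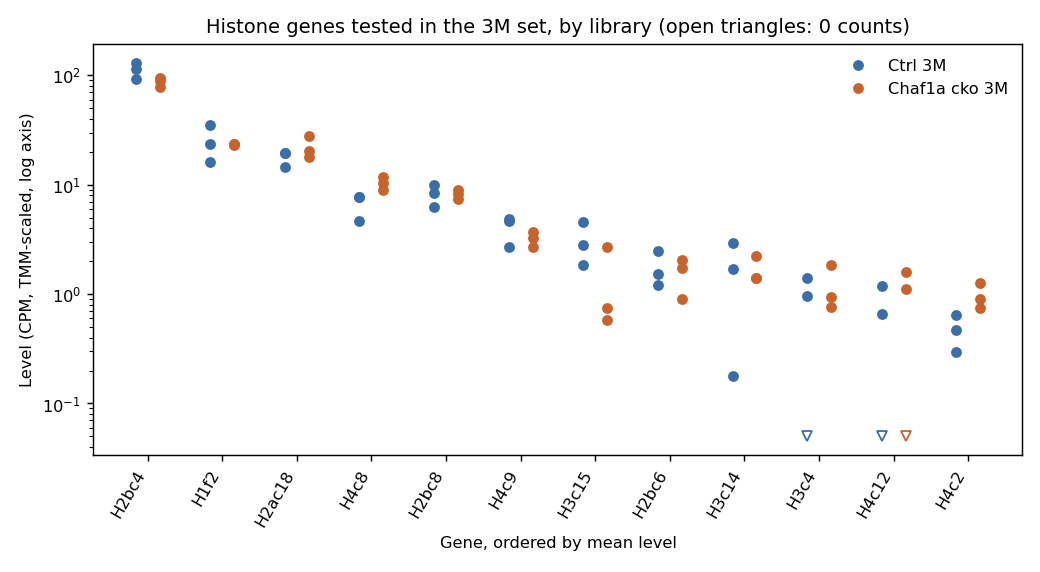
Level (y axis, CPM scaled by TMM, log axis) of the 12 histone genes that passed the filter in the 3M set (x axis, ordered by mean level), with 1 point per library and open triangles for libraries with 0 counts. H2bc4 stands above all other genes at 79.1 to 130.7 CPM, and blue and orange points overlap for every gene except H4c8 and H4c2.

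The genotype effect was compared between the sets with the interaction of set and genotype in edgeR. Of 13856 genes tested 12 were called (0.0866%), and of the 12 histone genes among them 0. H2bc4 had the smallest p of the histone genes, with a difference of -0.85 (SE 0.23, 95% interval -1.34 to -0.36, unadjusted p 0.00276, adjusted p 0.265 in edgeR), the 3M value being the lower one. It was the only histone gene with an unadjusted p under 0.05. For H4c8 the values were 0.61 and 0.63, and the interval of their difference ran from -0.62 to 0.72. For H2ac18 they were 0.45 and 0.30, with an interval from -0.67 to 0.42. Both intervals hold 0 and also a difference as large as the first-set value.

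In the 3M set edgeR called 0 genes in each of the 7 lists of histone-related genes. Unadjusted p-values under 0.05 were found for 1 gene of transcription and 3′ processing (lower), 2 chaperone genes (1 in each direction) and 1 replacement histone gene (lower), and DESeq2 called 0. S phase markers summed to 249.8 to 301 CPM in Ctrl 3M and 254 to 260.5 CPM in Chaf1a cko 3M, with a median of -0.01. Slbp had -0.16, Nap1l1 0.34 and Dnajc9 0.03, and all of them overlapped. Chaf1a was at 1.88, 4.74 and 9.75 CPM against 8.34, 5.58 and 5.54 CPM. Cardiomyocyte markers summed to 34090.5 to 41665.3 CPM in Ctrl 3M and 47885.3 to 52953.0 CPM in Chaf1a cko 3M. That list was mixed here too, with 6 of the 10 log2 fold changes above 0 and a median of 0.06. Macrophage markers (437 to 567 against 288 to 358 CPM) and epicardial markers (61.2 to 142.6 against 17.8 to 34.1 CPM, with Upk3b and Msln at 0) were lower in Chaf1a cko 3M. No marker of any list passed in edgeR, where 3 cardiomyocyte markers (higher) and 5 macrophage markers (lower) had an unadjusted p under 0.05. So did 1 endothelial, 1 epicardial and 1 fibroblast marker (each lower) and 1 erythroid marker (higher). Over all tested genes 6.93% had one in either direction. The part of these shifts in the 3M histone values was not tested.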

How the data were processed

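RNA of 12 mouse cardiomyocyte libraries was analysed from 2 tables of gene counts that the authors deposited as whole numbers per gene symbol, without normalization. Per the submitters' processing notes, FastQC, Trimmomatic and HISAT2 were used with mm10. Counting program, annotation and strand are not given in the sources read here, and reads shared by near-identical copies, overlapping genes or antisense genes could have been split, dropped or assigned in full to one of them. Of 25239 symbols 25041 matched RefSeq of GRCm38.p6, the assembly of mm10, which gave coordinates (counted from 1) and gene lengths. The tables held 0 unused columns.

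Libraries were grouped by the genotype in their titles. Each table was fitted alone over all genes in R 4.3.3 with edgeR 4.0.16: filterByExpr (minimum count 10, minimum total 15), TMM, robust glmQLFit, two-sided glmQLFTest, Benjamini-Hochberg adjustment, threshold 0.05. Standard errors and 95% intervals hold counting error and the spread of 3 libraries per group. Class sums are summed counts as TMM-scaled CPM, without a test. With 3 against 3, an exact permutation test cannot go below 0.1, and none was used. Fits were tested on simulated data. The histone genes and all lists were chosen with earlier results of these data known. Values in every library are given, per class, for the 3 genes with the smallest p and the 2 with the highest mean in the first set, and for 2 and 2 in the 3M set. From lists, called genes (up to 4) or the 2 most abundant are named. H3c14 in the first set, H2ac19, Slbp, Npat, Ccna2, Pcna, Mki67, Tal1, Rmrp, Rpph1, H4c6, H4c14 and the Y-linked genes were chosen after their values were seen. The H1 and HINFP motifs, too, were added after seeing the data. A 50-base window of a coding sequence counts as shared if found in a transcript of another gene, leaving out predicted Gm loci.

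Alternatives were scaling by DESeq2 size factors or by library size, DESeq2 1.42.0 with its Wald test, no low-count filter, at least 10 CPM in at least 3 libraries, a replicate block, other sets of summed genes, and leaving out each library.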

Additional observations from a re-analysis of the deposited data

How the results depend on the processing

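The 16 calls of the first set, all higher, became 16 with DESeq2 size factors, 13 with library size alone, 22 with DESeq2's Wald test, 16 without a filter and 19 with at least 10 CPM in at least 3 libraries. Leaving out a library gave 5 to 9 calls, all higher. The 6 calls among the histone-related lists became 13 with the Wald test and 0 to 3 with a library left out. Among class sums, leaving out the most abundant gene gave log2 ratios of 0.57 for H1 in the first set, and the 3M sums became 0.09 for all genes, 3.48 for H1 (a few counts in all), -0.07 for H2B and -0.03 for H4. Adding the other clustered histone genes to the sums was an alternative chosen after seeing the data. It raised the sums themselves, that of all genes by 201 to 224 CPM in the Ctrl libraries of the first set. The log2 ratios of all 12 sums were classed as unchanged. Signs turned with a library left out for first-set H3c15 (-0.12 to 0.46) and for the 3M values of H1f2 (-0.32 to 0.23), H2bc6 (-0.41 to 0.18), H2bc8 (-0.17 to 0.15) and H3c14 (-0.44 to 0.86), none of them called. H2bc8 in the 3M set was also 0.01 with library size alone. The cause of these changes was not tested, beyond the smaller number of libraries.

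Replicate numbers did not pair the libraries: deviations of same-numbered libraries correlated at -0.0215, 0.0284 and 0.0476 for the first set, at -0.0276, 0.000626 and 0.00158 for the 3M set. With a replicate block 11 histone genes and 4 list genes were called among first-set values, and 0 among 3M values, where the sign of H2bc8 turned (0.01). The best match of a library was not always its own number.

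Low counts of these genes and the spread among libraries limit the 3M set, where 33 of the 45 genes were too low to test. The cause of the low counts was not tested.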
